A study of Mus musculus with 2 samples.

Results

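The level of 10 genes of bile acid handling in mouse liver was followed through a pair of RNA sequencing libraries. The libraries were labelled Lrg1 knockout and wild type, with 1 library each. The genes comprise 4 synthesis enzymes (Cyp7a1, Cyp8b1, Cyp27a1 and Cyp7b1), 2 nuclear receptors of the FXR and SHP axis (Nr1h4 and Nr0b2) and 4 transporters (Abcb11, Slc10a1, Slco1a1 and Slco1b2). These genes were chosen by symbol for their known roles, 10 of the 22609 gene symbols in the count tables, and all 10 passed the minimum of 50 reads summed over both libraries that defined a measured gene. The LRG1_KO library came from male mice with a whole-body Lrg1 deletion and the WT library from male C57BL/6J wild-type mice, with the strain given as C57BL/6 for both. Both had eaten a high-fat diet, 45% of its calories from fat, for 16 weeks from 8 weeks of age. The labels do not give the number of mice behind a library, the hour of collection or the feeding state, and the deleted part of Lrg1 is stated nowhere in the sources used here. The series concerns LRG1, a secreted glycoprotein, in the fatty liver of obesity.

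The liver makes bile acids from cholesterol. In the classic pathway CYP7A1 takes the first and rate-limiting step and CYP8B1 decides how much cholic acid is made, whereas in the alternative pathway CYP27A1 oxidises the side chain first and CYP7B1 hydroxylates the resulting oxysterols. Bile acids activate the nuclear receptor FXR (Nr1h4), which induces SHP (Nr0b2), and SHP lowers transcription of Cyp7a1 and Cyp8b1. Hepatocytes take bile acids up from portal blood through NTCP (Slc10a1) and organic anion transporters of the SLCO1 family, and export them into bile through BSEP (Abcb11).

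The LRG1_KO library held 18738397 reads in genes and the WT library 23311906. Levels are given as CPM, reads relative to library size after scaling by the trimmed mean of M-values (TMM), so that 1 read was worth 0.0519 CPM in the LRG1_KO library and 0.0441 CPM in the WT library. Since each genotype has 1 library, the differences below are between libraries, with no test and no p-value. Intervals are exact 95% intervals for counting error alone. Lrg1 had 17572 reads in the LRG1_KO library and 26958 in the WT library (log2 ratio -0.39), so reads of Lrg1 were not absent, the counts could not check the knockout label, and each direction below refers to the library labelled LRG1_KO. The hepatocyte markers were abundant in both libraries, with 15 of 15 measured and a summed level of 129196 CPM in the LRG1_KO library and 145509 CPM in the WT library, 11 of them lower and 4 higher in the LRG1_KO library. Their median log2 ratio was -0.06, and 0.02 with total-count scaling. The log2 ratios of these markers ran from -0.54 (Cps1) to 1.55 (Serpina1e). Alb alone made up 64406 CPM of the sum in the LRG1_KO library and 79170 CPM in the WT library.

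An enzyme gene of each pathway, Cyp7a1 of the classic and Cyp7b1 of the alternative one, was higher in the LRG1_KO library, and the repressor gene Nr0b2 was lower. The other enzyme gene of each pathway differed less, with ratios of 1.24 for Cyp8b1 and 0.822 for Cyp27a1. The uptake gene Slco1a1 was higher, at 1.75, near the 1.80 of Cyp7a1. The receptor gene Nr1h4 and the export pump gene Abcb11 differed by less than 1.5-fold. In bulk tissue, fewer cells of a type and less RNA per cell cannot be told apart. Of the 10 genes, 1 (Cyp7b1) was at least 2-fold higher, beside 1.70% of the 11411 measured genes, and 1 (Nr0b2) at least 2-fold lower, beside 2.50% of measured genes. At 1.5-fold, 3 of the 10 were higher (Cyp7b1, Cyp7a1 and Slco1a1), beside 5.85% of measured genes, and 1 was lower, beside 6.91%. Their median log2 ratio was -0.07, beside -0.01 over all measured genes, and 0.0085 with total-count scaling. With 5 genes above and 5 below 0, the 10 genes had no common direction.

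**Figure D1:**
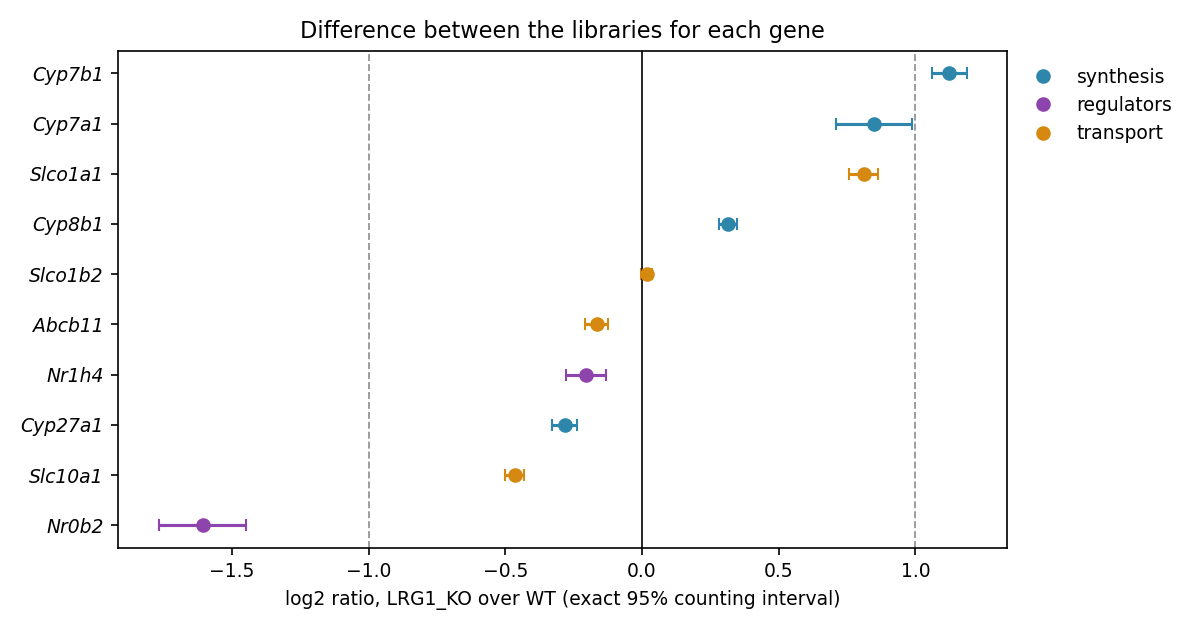
Log2 ratio of the LRG1_KO to the WT library (x axis) for each of the 10 genes (y axis), coloured by role, with exact 95% intervals for counting error and dashed lines at 2-fold. Cyp7b1 lies beyond the upper line at 1.12, Nr0b2 beyond the lower line at -1.61, and the other genes between -0.47 and 0.85.

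Among the synthesis enzymes, 3 of 4 were higher in the LRG1_KO library, with a median log2 ratio of 0.58. Cyp7a1 had 1085 reads (56.3 CPM, 53.0 to 59.7) in the LRG1_KO library, against 708 reads (31.3 CPM, 29.0 to 33.6) in the WT library. The level in the LRG1_KO library was thus 1.80 times that in WT (1.64 to 1.98), a log2 ratio of 0.85 that lay above those of 97.4% of measured genes. Cyp7a1, the rate-limiting enzyme, is known for a daily rhythm in mouse liver, and the hour of collection is not given in the labels.

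Cyp8b1, the enzyme that directs synthesis towards cholic acid, had 14457 reads (749.7 CPM) in the LRG1_KO library and 13655 reads (602.8 CPM) in the WT library, a ratio of 1.24 (1.21 to 1.27). It was thus higher in the LRG1_KO library by less than 1.5-fold. The mitochondrial side-chain hydroxylase Cyp27a1 was the synthesis gene that went the other way, with 6882 reads (356.9 CPM) in the LRG1_KO library, against 9838 reads (434.3 CPM) in WT. Its ratio was 0.822 (0.797 to 0.848).

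Cyp7b1, the oxysterol hydroxylase of the alternative pathway, had the highest ratio of the 10 genes. It had 5615 reads (291.2 CPM, 283.6 to 298.9) in the LRG1_KO library, against 3028 reads (133.7 CPM, 129.0 to 138.5) in WT. The ratio was 2.18 (2.08 to 2.28), above those of 98.8% of measured genes. Cyp7b1 is known in mice as a gene with higher liver expression in males than in females. Cyp7a1, Cyp8b1, Cyp27a1 and Cyp7b1 lie on 4 different chromosomes (4, 9, 1 and 3), and none of their transcripts shared a stretch of 50 bases, the read length, with a transcript of another gene in GENCODE M21.

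The regulators were both lower in the LRG1_KO library but by different amounts. Nr0b2, which encodes SHP, a receptor without a DNA-binding domain that represses other transcription factors, had the lowest ratio of the 10 genes. It had 414 reads (21.5 CPM, 19.5 to 23.6) in the LRG1_KO library, against 1482 reads (65.4 CPM, 62.1 to 68.8) in WT. The level in the LRG1_KO library was 0.328 of that in WT (0.294 to 0.366), and 0.876% of measured genes had a lower log2 ratio. Nr1h4, which encodes the bile acid receptor FXR, had 2636 reads (136.7 CPM) in the LRG1_KO library and 3573 reads (157.7 CPM) in the WT library, a ratio of 0.867 (0.824 to 0.912).

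Because Nr0b2 differed most, the sequence around its annotated start is shown beside that of Slco1a1, the gene with the highest ratio among those with a promoter in the RefSeq table. Promoters of 8 of the 10 genes were found there, on build GRCm38.p6, each running from 250 bases before the start to 50 after it; those of Cyp7a1 and Cyp7b1 were not matched. The sequences run 5′ to 3′ on the strand of the gene, and capitals mark matches to the motifs named below. Nr0b2 is on the plus strand at chr4:133553126-133553425 and Slco1a1 on the minus strand at chr6:141946913-141947212.
Nr0b2: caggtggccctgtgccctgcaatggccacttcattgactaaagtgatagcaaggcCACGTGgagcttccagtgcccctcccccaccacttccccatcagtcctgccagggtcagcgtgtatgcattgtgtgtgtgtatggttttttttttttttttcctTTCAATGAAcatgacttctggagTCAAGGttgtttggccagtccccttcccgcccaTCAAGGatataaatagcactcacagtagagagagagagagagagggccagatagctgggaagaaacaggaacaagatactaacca
Slco1a1: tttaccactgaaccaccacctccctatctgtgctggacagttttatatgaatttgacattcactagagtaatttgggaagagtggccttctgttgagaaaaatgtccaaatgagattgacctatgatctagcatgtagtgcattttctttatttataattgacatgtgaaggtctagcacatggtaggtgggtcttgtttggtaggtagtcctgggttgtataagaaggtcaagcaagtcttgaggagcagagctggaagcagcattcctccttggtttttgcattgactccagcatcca

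Motifs were searched on both strands as exact letters. The Nr0b2 promoter held the E-box CACGTG, starting 195 bases before the start, a STAT match TTCAATGAA to the pattern TTCNNNGAA, starting 91 bases before it, and the core TCAAGG of sites for NR5A receptors, such as LRH-1, at 68 and 35 bases before it. The Slco1a1 promoter held no match. Of the other promoters of these genes, those of Slc10a1, at the first of its 2 listed starts, and Slco1b2 each held 1 match to the STAT pattern, TTCTCTGAA and TTCTGAGAA. Of all 32851 promoters in the table, 7.15% held the E-box, 8.30% the STAT pattern and 14.4% the NR5A core. The D-box TTATGTAA (0.938% of promoters) and the longer NR5A motif CAAGGTCA (1.56%) were found in none of the promoters of these genes. The same was true of AGGTCA repeated after 1 base in inverted (0.00913%) or direct orientation (0.0396%). The matches describe these letters only, and the NR5A core was added to the search after these promoters had been seen.

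Of the transporters, 2 were higher and 2 lower in the LRG1_KO library, with a median log2 ratio of -0.07 that was 0.0085 with total-count scaling. Slco1b2, an organic anion transporter of the sinusoidal membrane, had 34073 reads (1767 CPM) in the LRG1_KO library and 39563 reads (1746 CPM) in the WT library, a ratio of 1.01 whose interval (0.997 to 1.03) included no difference. Abcb11, the canalicular export pump, had 7883 reads (408.8 CPM) in the LRG1_KO library and 10385 reads (458.4 CPM) in WT, a ratio of 0.892 (0.866 to 0.918). Both thus lay close to equal levels in the 2 libraries. Slc10a1, the sodium-dependent uptake carrier, had 10514 reads (545.2 CPM) in the LRG1_KO library, against 17061 reads (753.2 CPM) in WT, a ratio of 0.724 (0.706 to 0.742) that was lower than those of most measured genes, with 9.91% below it.

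Slco1a1, another sinusoidal organic anion transporter and one with male-biased expression in mouse liver, was the transporter with the highest ratio. It had 7381 reads (382.8 CPM, 374.1 to 391.6) in the LRG1_KO library, against 4944 reads (218.3 CPM, 212.2 to 224.4) in WT, a ratio of 1.75 (1.69 to 1.82) above those of 97.1% of measured genes. Slco1a1 and Slco1b2 belong to a cluster of related genes on chromosome 6 whose other listed members are Slco1a4, Slco1a5, Slco1a6 and Slco1c1. Slco1a4, an uptake transporter with female-biased expression in mouse liver, had 512 reads (26.6 CPM) in the LRG1_KO library and 1627 reads (71.8 CPM) in WT, a ratio of 0.370 (0.334 to 0.409). Neighbouring genes of 1 cluster therefore lay on both sides of 0, with log2 ratios of 0.81 for Slco1a1, 0.02 for Slco1b2 and -1.43 for Slco1a4. Slco1a5 and Slco1a6 had 0 reads in both libraries, which allows up to 0.156 CPM in the LRG1_KO library and 0.132 CPM in WT (3 counts), and Slco1c1 had 2 reads in the LRG1_KO library and 0 in WT. Of the 4054 stretches of 50 bases in Slco1a1 transcripts, 84 also occurred in Slco1a4, and 2.15% occurred in any other gene, so reads from those stretches could not be assigned to 1 gene.

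**Figure D2:**
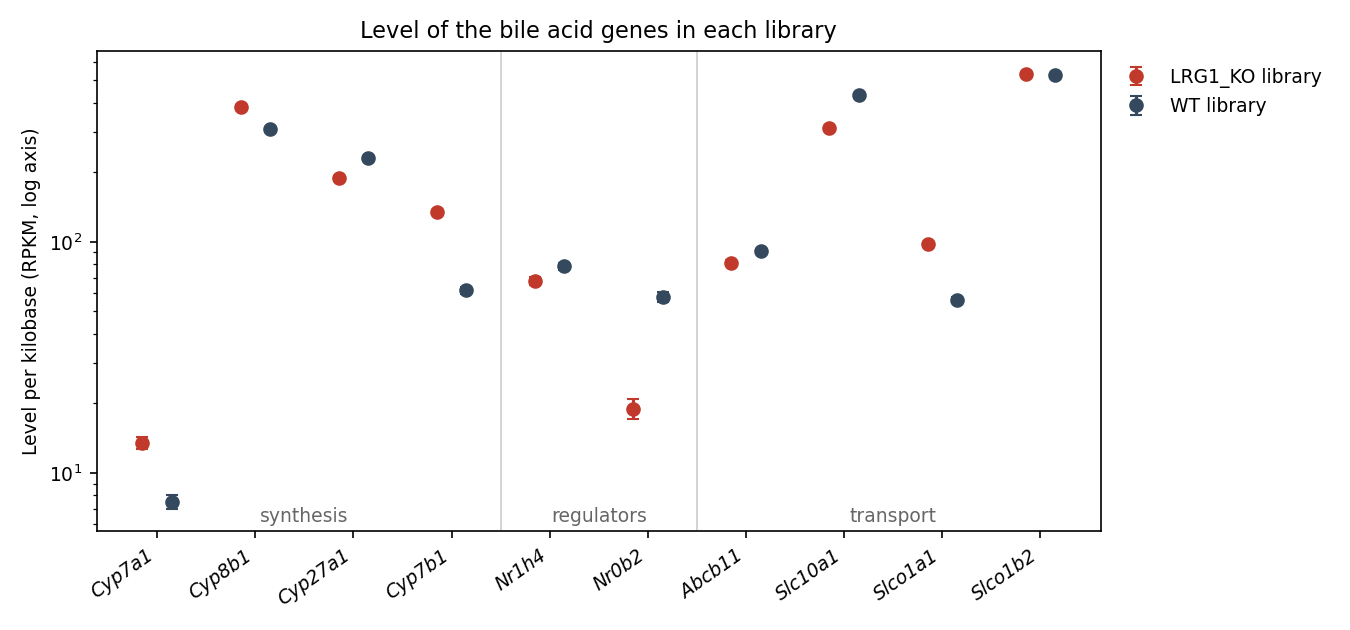
Level per kilobase of transcript (RPKM, log axis) of the 10 genes in the LRG1_KO library (red, left) and the WT library (blue, right), with exact 95% Poisson intervals, most of them smaller than the points. Slco1b2 is highest and Cyp7a1 lowest in both libraries, and the widest gaps between the libraries are at Nr0b2 and Cyp7b1.

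To compare genes with each other, levels were divided by the length of the longest coding transcript (RPKM). In the LRG1_KO library the order was Slco1b2 (534.3 RPKM), Cyp8b1 (384.5), Slc10a1 (311.7), Cyp27a1 (188.6), Cyp7b1 (134.4), Slco1a1 (98.0), Abcb11 (81.4), Nr1h4 (67.9), Nr0b2 (19.0) and Cyp7a1 (13.5), and no neighbours in it had overlapping counting intervals. In the WT library it was Slco1b2 (528.1 RPKM), Slc10a1 (430.6), Cyp8b1 (309.1), Cyp27a1 (229.5), Abcb11 (91.2), Nr1h4 (78.4), Cyp7b1 (61.7), Nr0b2 (57.8), Slco1a1 (55.9) and Cyp7a1 (7.49). There the intervals of Cyp7b1 and Nr0b2 overlapped, as did those of Nr0b2 and Slco1a1. Cyp7b1 was thus above Abcb11 and Nr1h4 in the LRG1_KO library and below them in WT. Among 10198 measured genes with a length, Slco1b2 ranked 110 in the LRG1_KO library and 115 in WT, and Cyp7a1 ranked 3005 in the LRG1_KO library and 4518 in WT. Per kilobase of coding sequence, an alternative chosen after the data were seen, 3 neighbours changed places in the LRG1_KO library. There Slc10a1 (502.1 RPKM) stood above Cyp8b1 (499.8 RPKM), Slco1a1 (207.1 RPKM) above Cyp7b1 (191.4 RPKM) and Cyp7a1 (37.3 RPKM) above Nr0b2 (27.5 RPKM). In WT, Slco1a1 (118.1 RPKM) moved above Abcb11 (115.7 RPKM), Nr1h4, Cyp7b1 and Nr0b2 on that scale. By coding length Slc10a1 was thus above Cyp8b1 in both libraries, and these places depend on the length used.

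Ratios between genes of the same library do not depend on how libraries are scaled, and 6 pairs were compared. The multiples per kilobase depend on the length used, whereas the comparison of a pair between LRG1_KO and WT does not. Of the 4172 bases of the Cyp7a1 transcript used here, 1509 are coding. Per kilobase, Nr0b2 stood at 0.279 of Nr1h4 in the LRG1_KO library and at 0.738 in WT, so that the SHP to FXR ratio in the LRG1_KO library was 0.379 of that in WT (0.335 to 0.427). Cyp27a1 stood at 14.0 times Cyp7a1 in the LRG1_KO library and 30.6 times in WT, a ratio of 0.456 (0.413 to 0.505). The gap between Cyp27a1 and Cyp7a1 was therefore narrower in the LRG1_KO library. Cyp8b1 stood at 28.5 times Cyp7a1 in the LRG1_KO library and 41.3 times in WT, a ratio of 0.691 (0.626 to 0.762). Cyp7b1 stood at 9.97 times Cyp7a1 in the LRG1_KO library and 8.24 times in WT, a ratio of 1.21 (1.09 to 1.34), the smallest of the 6 differences on the log2 scale.

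For the transporters, the export pump gene Abcb11 was compared with 1 uptake gene, Slc10a1. Abcb11 over Slc10a1 stood at 0.261 in the LRG1_KO library and 0.212 in WT, a ratio of 1.23 (1.19 to 1.28). This higher ratio holds against Slc10a1 only. The uptake genes Slco1b2 and Slco1a1 had LRG1_KO to WT ratios of 1.01 and 1.75, both above that of Abcb11 (0.892). The 2 organic anion transporters, Slco1a1 over Slco1b2, stood at 0.183 in the LRG1_KO library and 0.106 in WT, a ratio of 1.73 (1.67 to 1.80).

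**Figure D3:**
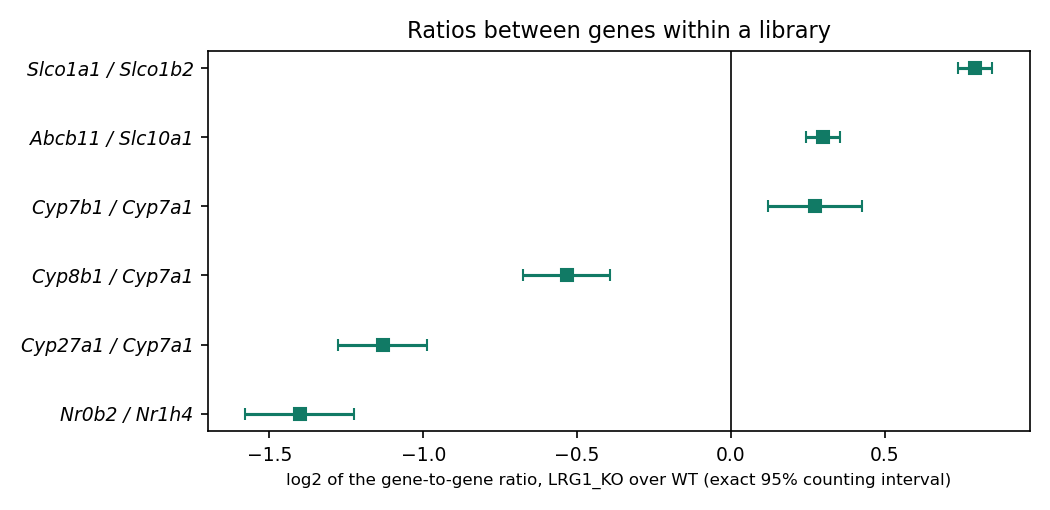
Log2 of the ratio between 2 genes in the LRG1_KO library over the same ratio in the WT library (x axis) for 6 pairs (y axis), with exact 95% intervals for counting error. Nr0b2 over Nr1h4 lies lowest at -1.40 and Slco1a1 over Slco1b2 highest at 0.79.

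Beyond these 10, other genes of bile acid handling were grouped by role into lists of synthesis and side-chain enzymes, conjugation enzymes, regulators, exporters, uptake transporters and FXR targets. Of these 58 genes, 51 were measured, and in the LRG1_KO library 0 were past 2-fold on the higher side, beside 1.70% of all measured genes, and 4 on the lower side, beside 2.50%. Their median log2 ratio was -0.08, beside -0.01 over all measured genes. With total-count scaling it was -0.0005, beside 0.07 over all measured genes. Of the 51, 21 lay above and 30 below 0, beside 5516 above and 5895 below among all 11411 measured genes. The 4 lower genes were Slco1a4, Slc10a2, Abcb1a and Pltp.

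The other synthesis enzymes had a median of -0.13, with 5 higher and 6 lower of 11 measured. Cyp39a1, an oxysterol hydroxylase, had 283 reads in the LRG1_KO library and 660 in WT, a ratio of 0.504 (0.437 to 0.580) just short of 2-fold. Akr1d1, the steroid reductase that saturates the sterol ring, was at a log2 ratio of -0.75 and Acox2, the peroxisomal oxidase of the side chain, at -0.62. These lower genes stood beside Cyp7a1, Cyp8b1 and Cyp7b1, which were higher in the LRG1_KO library. The 4 conjugation genes had a median of 0.09. None was 1.5-fold apart, beside 5.85% of all measured genes that much higher and 6.91% lower. Sult2a8, a bile acid sulfotransferase of mouse liver listed under the older symbol 2810007J24Rik, was at 0.52, Acot8, a peroxisomal thioesterase, at 0.09 and Baat, which joins bile acids to taurine, at 0.08.

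Regulators had a median of -0.19, with 9 lower and 4 higher of 13 measured. None was 1.5-fold apart, beside 5.85% of all measured genes that much higher and 6.91% lower. Nr1i2, the xenobiotic receptor PXR, was at -0.52, Hnf4a, which activates Cyp7a1 and Cyp8b1, at -0.51 and Prox1, a corepressor of Cyp7a1 transcription, at -0.33. The bile acid receptor gene Gpbar1 had 0 reads in both libraries.

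Exporters of the canalicular membrane had a median of 0.13, with 4 higher and 3 lower of 7 measured. Abcb1a, a drug efflux pump, was at -2.02 on 11 reads in the LRG1_KO library and 54 in WT, and 18.6% of its stretches of 50 bases also occurred in other genes, most of them in Abcb1b, so its value is uncertain. Basolateral exporters had a median of -0.24, and Abcc3, an exporter of conjugated bile acids to blood, was at -0.31, Abcc6 at -0.24 and Abcc4 at -0.06. Both subunits of the basolateral exporter OST, listed as Osta and Ostb, were near the limit of detection, with 0 and 5 reads in the LRG1_KO library and 0 and 5 in WT.

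Uptake transporters had a median of -0.37, with 3 higher and 4 lower of 7 measured. Slc10a2, the sodium-dependent carrier of ileum and bile duct cells, had 79 reads (4.10 CPM) in the LRG1_KO library and 335 reads (14.8 CPM) in WT, a ratio of 0.277 (0.214 to 0.355). The other 9 markers of bile duct cells summed to 62.4 CPM in the LRG1_KO library and 61.0 CPM in WT. Of the 9, 3 were measured, and none of these was 1.5-fold apart, beside 5.85% of all measured genes that much higher and 6.91% lower. Krt7 and Krt19, defining keratins of these cells, had 5 and 21 reads in the LRG1_KO library and 26 and 28 in WT. Other listed markers with few reads went the other way. Muc1 and Epcam had 18 and 18 reads in the LRG1_KO library and 9 and 13 in WT, and Cftr had 2 and 1. Prom1 had 8 reads in each library. Slc22a7, an organic anion carrier named after its value was seen, was at 0.86 and was the other pathway gene at least 1.5-fold higher.

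The measured FXR targets other than Nr0b2 and Abcb11 all lay nearer to equal levels than Nr0b2. That was likely for any short list, because only 0.876% of all measured genes had a lower log2 ratio than Nr0b2. Of 8 measured, 1 was at least 2-fold lower, beside 2.50% of all measured genes. This was the phospholipid transfer protein gene Pltp, with 564 reads in the LRG1_KO library and 1405 in WT (ratio 0.472, 0.427 to 0.520). The median was -0.01, and it was above 0 under 3 of the 4 other scalings. The log2 ratios of the other 7 were -0.37 for Apoc2, -0.28 for Mafg, -0.01 for Sdc1, -0.00 for Cyp3a11, 0.03 for Osgin1, 0.11 for Fetub and 0.13 for Abcb4. Fgf15, the hormone that ileum releases on FXR activation, had 0 reads in both libraries, as did the ileal bile acid binding protein gene Fabp6. The other listed ileal markers were not all near 0. Fabp2 had 4204 reads in the LRG1_KO library and 4258 in WT, and Lgals4 had 74 and 67. Vil1 had 1 read in the LRG1_KO library and 5 in WT, and Cdh17 had 0 and 1. Markers of other liver cells differed too, and their part in these results was not tested: the 5 sinusoidal endothelial markers summed to 230.2 CPM in the LRG1_KO library and 146.0 CPM in WT with 4 of 5 higher, and the 5 Kupffer cell markers to 284.5 CPM in the LRG1_KO library and 339.0 CPM in WT with 4 of 5 lower. Among the Kupffer cell markers, Marco differed most, with 12.1 CPM in the LRG1_KO library and 49.7 CPM in WT, and Clec4f was higher in the LRG1_KO library at 121.1 CPM, against 109.1 CPM in WT.

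**Figure D4:**
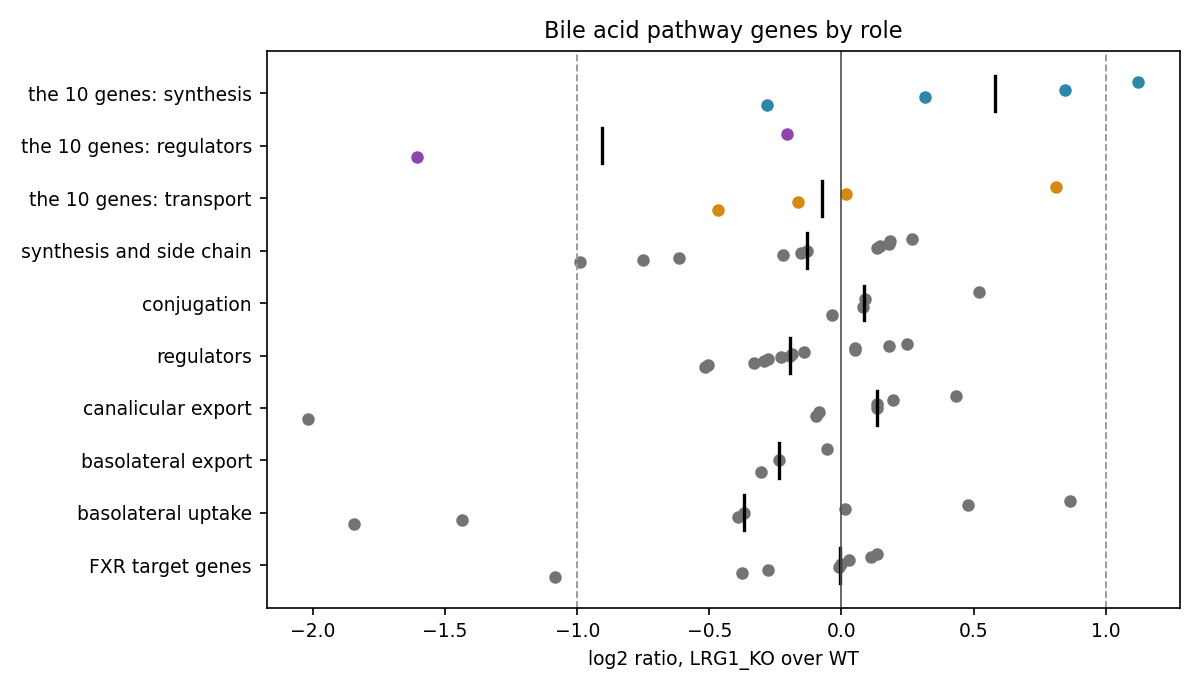
Log2 ratio of the LRG1_KO to the WT library (x axis) for measured genes in each role (rows), with the 10 genes in colour, other pathway genes in grey, a black bar at the median of each row and dashed lines at 2-fold. The 4 grey points beyond the lower line are Abcb1a, Slc10a2, Slco1a4 and Pltp, and no grey point lies beyond the upper line.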

How the data were processed

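Stranded mRNA libraries of 1 LRG1_KO and 1 WT liver sample were read as single ends of 50 bases, per the labels' protocols. Raw counts for each gene symbol are what the authors deposited; bcl2fastq, TopHat2, HTSeq and mm9 are named in the submitters' processing notes, and versions, strand setting and annotation are stated nowhere in the sources used here. Lines that name no gene did not enter library sizes. Of the reads with a unique place, 14.4% in the LRG1_KO library and 14.0% in WT lay outside genes, and 0.234% in LRG1_KO and 0.231% in WT were ambiguous between genes. Alignments that were not unique made up 58.0% of everything tallied in the LRG1_KO library and 50.3% in WT.

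Counts were scaled by TMM (edgeR 4.0.16, R 4.3.3; factors 1.03 for LRG1_KO and 0.972 for WT). Log2 ratios of LRG1_KO over WT used a prior count of 0.5, and a gene was called past 2-fold from 50 reads over both libraries. Ratios have Clopper-Pearson intervals given the summed count, pairs of genes conditional odds ratios with exact intervals, and single counts Poisson intervals. These cover counting error only, and no spread between mice is measured. They treat each read as separate, and without molecular identifiers copies of 1 molecule could not be told apart from it.

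Lengths and shared stretches came from GENCODE M21 (GRCm38) and promoters from RefSeq (GRCm38.p6), whereas the counts were made on mm9; 89.4% of measured genes had a length. The rule for named genes took all 10, Lrg1, and in each pathway list those past 2-fold or, where none was, the 3 farthest from 0. Slc22a7, the other FXR targets, genes with few or 0 reads and cell type markers fall outside it and were chosen after their values were seen. The 10 genes, the lists and the alternatives were chosen with earlier results of these data known.

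A simulated pair of libraries with Poisson error only tested the steps on 11390 measured genes: 49 of 50 genes set to 0.4 of WT and 50 of 50 set 3-fold higher passed 2-fold, as did 14 of 11190 unchanged genes. Alternatives were total-count and DESeq2 1.42.0 scaling, total counts leaving out the 20 most abundant genes, scaling to hepatocyte markers, thinning of the WT library, a prior of 2, other read minimums and other thresholds. Intervals and figures used Python 3.11.15, scipy 1.17.1 with numpy 2.4.6, pandas 2.3.3, and matplotlib 3.10.9.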

Additional observations from a re-analysis of the deposited data

Results flagged for a closer look

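The count tables also hold a line for alignments that were not unique, and the comparisons leave it out. This line drew attention because it is large beside a limit of 3 counts. It held 30368128 in the LRG1_KO library and 27554856 in the WT library, which is 1.62 in the LRG1_KO library and 1.18 in WT for each read counted in a gene. Stretches of 50 bases found in another gene made up 0% of the transcripts of 7 of the 10 bile acid genes. They made up 2.15% in Slco1a1, 1.70% in Abcb11 and 0.977% in Slc10a1. From which genes these alignments came was not tested.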

How the results depend on the processing

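No paired analysis was possible because each group holds 1 library. For the 10 genes, 4 other scalings, thinning of the WT library and a prior count of 2 left the direction of every log2 ratio as it was, with Nr0b2 between -1.60 and -1.52, Cyp7b1 between 1.12 and 1.21, Cyp7a1 between 0.85 and 0.93 and Slco1b2 between 0.02 and 0.10. Under total-count scaling the median was 0.0085 for the 10 genes and -0.0005 for the other pathway genes. Thresholds change the counts by construction. At 1.5-fold, 3 of the 10 genes were higher in the LRG1_KO library and 1 lower. Of the other pathway genes, 1 was higher and 7 lower, beside 5.85% and 6.91% of all measured genes. At 3-fold, 0 of the 10 were higher and 1 (Nr0b2) lower. Of the other pathway genes, 0 were higher and 2 lower at 3-fold, beside 51 higher and 105 lower of 11411 measured genes. Of all genes, 194 were past 2-fold on the higher side and 285 on the lower side with a minimum of 50 reads. With no minimum beyond 1 read these were 1243 higher and 1449 lower. A minimum of 10 reads gave 458 higher and 525 lower, and a minimum of 200 reads 100 higher and 166 lower. A threshold of 1.5-fold gave 667 higher and 789 lower, and of 3-fold 51 higher and 105 lower. Total-count scaling gave 236 higher and 251 lower, a share of 48.5% higher against 40.5%. The number of other pathway genes past 2-fold on the lower side was 5 with the WT library thinned and 3 with a minimum of 200 reads, against 4. Thinning left all 6 ratios between genes within their intervals. Depth limits Abcb1a and the genes with few or 0 reads.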
